A study of Mus musculus with 6 samples.

Results

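The genes described here are 56 genes of DNA replication and S phase, picked by symbol for their function from the 21367 genes of the deposited table. All 56 symbols were found once each, and all 56 passed the filter on low counts, as did 13036 genes in all. They were grouped by role into licensing, helicase activation, polymerases, the sliding clamp and its loaders, single-strand binding with flap removal, ligation and repair, nucleotide supply, chromatin assembly, G1/S entry and the fork checkpoint. RNA was sequenced from the left kidneys of 3 Ptpn6+/mev mice and 3 wild-type littermates on a C57BL/6 background, and each mouse gave 1 library. The Ptpn6+/mev animals carry a single copy of the viable motheaten allele, a splice-site mutation of the gene for the phosphatase SHP-1, and GEO's labels call them SHP1 knockdown. All 6 mice were 7 weeks old, had lost the right kidney, and were killed 24 h after the left renal pedicle had been clamped for 34 min (ischemia-reperfusion injury, IRI), so kidneys without IRI are not part of the comparison. The allele is carried in every cell of the animal, and each library is a whole-kidney mixture of cell types.

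DNA replication begins in G1, when the origin recognition complex, Cdc6 and Cdt1 load the ring of Mcm2 to Mcm7 onto DNA, a step called licensing. At the start of S phase Cdc45 and GINS join the ring to form the moving helicase, and polymerases, the clamp PCNA and its loader RFC copy both strands. Transcription of most of these genes is switched on at the G1/S boundary by E2F factors. In the adult kidney tubular cells seldom divide, and after ischemic injury surviving tubular cells re-enter the cell cycle.

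The libraries held between 10271590 and 12361745 counts each. By edgeR's TMM method the scaling factor was 0.929 for wild-type kidney 2 and 0.994 to 1.03 for the other 5. Values are given for kidneys 1, 2 and 3 in that order, Ptpn6+/mev first, as FPKM (fragments scaled to transcript length and library size) unless said otherwise. Ptpn6, the gene that carries the allele, stood at 11.85, 14.7 and 13.6 FPKM against 17.5, 10.9 and 15.4 FPKM. The groups overlapped (log2 fold change -0.19, standard error 0.17, and, by the quasi-likelihood test of edgeR, adjusted p = 0.715), and a count over the whole gene does not tell the splice-site allele from the intact one. Markers of kidney were present in every library: Umod, of the loop of Henle, had 1628 to 2556 FPKM, and Slc34a1, the phosphate transporter of the proximal tubule, 176 to 313 FPKM. Havcr1, the injury marker KIM-1, was at 1087 to 1565 FPKM in all 6 kidneys.

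Levels of the 56 genes were on the whole higher in Ptpn6+/mev kidneys. All 56 had a log2 fold change above 0, against 49.5% of the tested genes, and the median was 0.59, against -0.0024 over all tested genes. In 36 of the 56 genes the FPKM of every Ptpn6+/mev kidney exceeded that of every wild-type kidney, against 14.0% of tested genes, and in none was every Ptpn6+/mev kidney lower, against 6.38%. The median itself was reached by 3.63% of tested genes. A fold change of 2 or more was reached by 9 genes, against 1.22% of tested genes: Exo1, Rrm2, Dscc1, Ccne2, Clspn, Cdc45, Ccne1, Chaf1b and Tk1. This count was 4 without wild-type replicate 2 (Exo1, Rrm2, Dscc1 and Rfc4) and 4 without Ptpn6+/mev replicate 2 (Exo1, Rrm2, Dscc1 and Ccne2), against 1.31% and 1.34% of the genes tested in those fits. It was 14 without wild-type replicate 3, against 2.07%, and 0 without both kidneys numbered 2, against 1.38%. The quasi-likelihood test of edgeR, with Benjamini-Hochberg adjustment over all tested genes, called none of the 56 at an FDR under 0.05, against 0.0690% of tested genes called higher, and the lowest FDR was 0.0852, for Rrm2. At an unadjusted p under 0.05 the same test had 31 of them, all higher, against 5.53% of tested genes. By limma on log2 FPKM none was called either, with 1 or with 0.1 added to each value. The other count tests called more. The exact test of edgeR called Pcna, Dscc1, Lig1, Exo1, Rrm1, Rrm2, Tk1 and Chaf1b, 8 genes against 1.21% of tested genes, and DESeq2 called 7, the same genes without Dscc1, against 1.09%.

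The kidneys within each group differed in a way that most of the 56 genes shared. The highest of the 6 values was that of Ptpn6+/mev replicate 2 in 52 genes, against 17.3% of tested genes, and the lowest was that of wild-type replicate 2 in 53 genes, against 42.7%. Both held in 49 genes, against 10.3%. Relative to each gene's mean over the 6 kidneys on the log2 FPKM scale, the median of the 56 genes was 0.10, 0.58 and 0.33 in Ptpn6+/mev kidneys and -0.12, -0.80 and -0.023 in wild-type kidneys. Wild-type replicates 1 and 3 and Ptpn6+/mev replicate 1 thus lay close together, with the 2 kidneys numbered 2 at the ends. In all 20 genes whose groups overlapped, Ptpn6+/mev replicate 1 was the lowest of its group. Picking genes by overlap favours the Ptpn6+/mev kidney with the lowest levels, so this count is a description only. In bulk tissue, a different number of cells in S phase and a different amount of these RNAs per cell cannot be told apart.

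**Figure D1:**
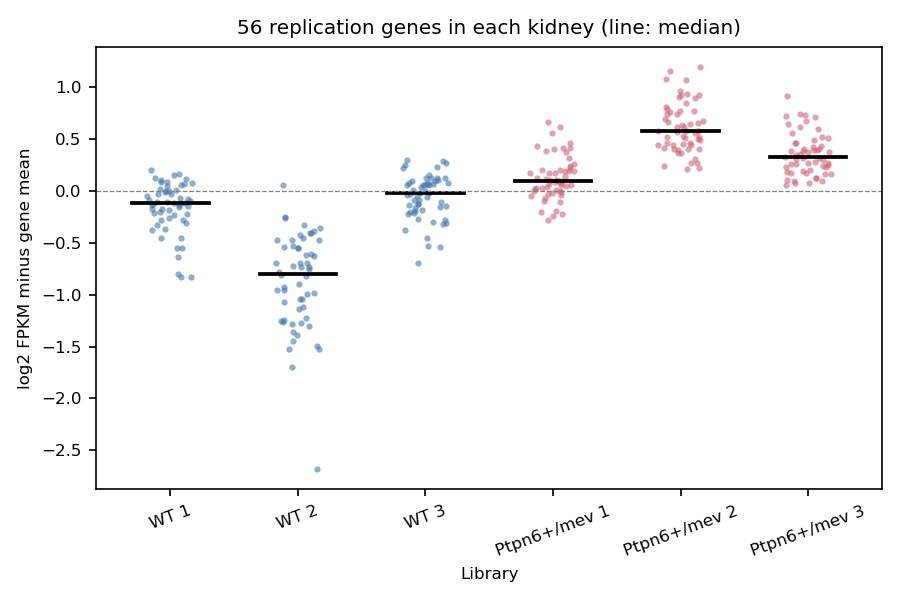
Each point is 1 of the 56 genes in 1 kidney, given on the vertical axis as its log2 FPKM minus that gene's mean over the 6 kidneys, and lines mark the medians of each library (3 wild-type libraries in blue, 3 Ptpn6+/mev libraries in red). The medians run from -0.80 in wild-type replicate 2 to 0.58 in Ptpn6+/mev replicate 2.

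Leaving out these kidneys changed the size of the difference more than its sign. Without wild-type replicate 2 the median log2 fold change of the 56 genes was 0.43 and 54 stayed above 0; at an FDR under 0.05 the quasi-likelihood test then called Rrm2 and Tk1, 2 genes against 0.706% of the tested genes. Without wild-type replicate 3 it called Rrm2 alone, against 0.121%. Without Ptpn6+/mev replicate 2 the median was 0.43 and 13 genes, in place of 31, were higher at an unadjusted p under 0.05, against 4.64% of tested genes, with none at an FDR under 0.05. With both kidneys numbered 2 left out, a choice made after the data were seen, the median was 0.27, 3 genes were called (Pcna, Rrm2 and Tk1) against 1.37% of tested genes called higher, 19 were higher at an unadjusted p under 0.05, against 9.74%, and Cdt1, Mcm2, Mcm4, Pold1, Pold2 and Dnmt1 had log2 fold changes below 0. Markers of several cell types also set wild-type replicate 2 apart. Summed over 6 endothelial markers the level was 79.2 FPKM there and 158 to 180 FPKM in the other 5 kidneys, and over 6 fibroblast and pericyte markers it was 85.4 FPKM against 262 to 309 FPKM. The sums for macrophages, 168 FPKM against 199 to 320 FPKM, and podocytes, 84.9 FPKM against 119 to 152 FPKM, were lowest there too. The sum for proximal tubule markers was highest there, 1373 FPKM against 955 to 1300 FPKM, and Slc27a2 alone made up 744.9 FPKM of it. Slc22a6, Slc22a8 and Aqp1 of that list were also highest there, while Slc34a1 and Slc5a2 were the lowest of the 6 kidneys. The sum for tubular injury markers was highest there too, 39005 FPKM against 26938 to 33160 FPKM, and Spp1 alone made up 32920 FPKM of it. Krt20 was also highest there, while Vcam1, Clu and Sox9 were the lowest of the 6 kidneys. Aqp2, the water channel of the collecting duct, was highest there, at 430.8 FPKM against 122 to 228 FPKM. Calb1, of the distal nephron, was too, at 45.6 FPKM against 14.1 to 27.97 FPKM, and Atp6v1g3, at 31.3 FPKM against 17.4 to 28.95 FPKM. Umod, Slc12a1 and Slc12a3 of the same list were higher in another kidney. The summed level of that list, the loop and distal nephron markers, was 2883 FPKM there, inside the range of 2032 to 2933 FPKM in the other kidneys. Their part in the low level of the replication genes was not tested.

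**Figure D2:**
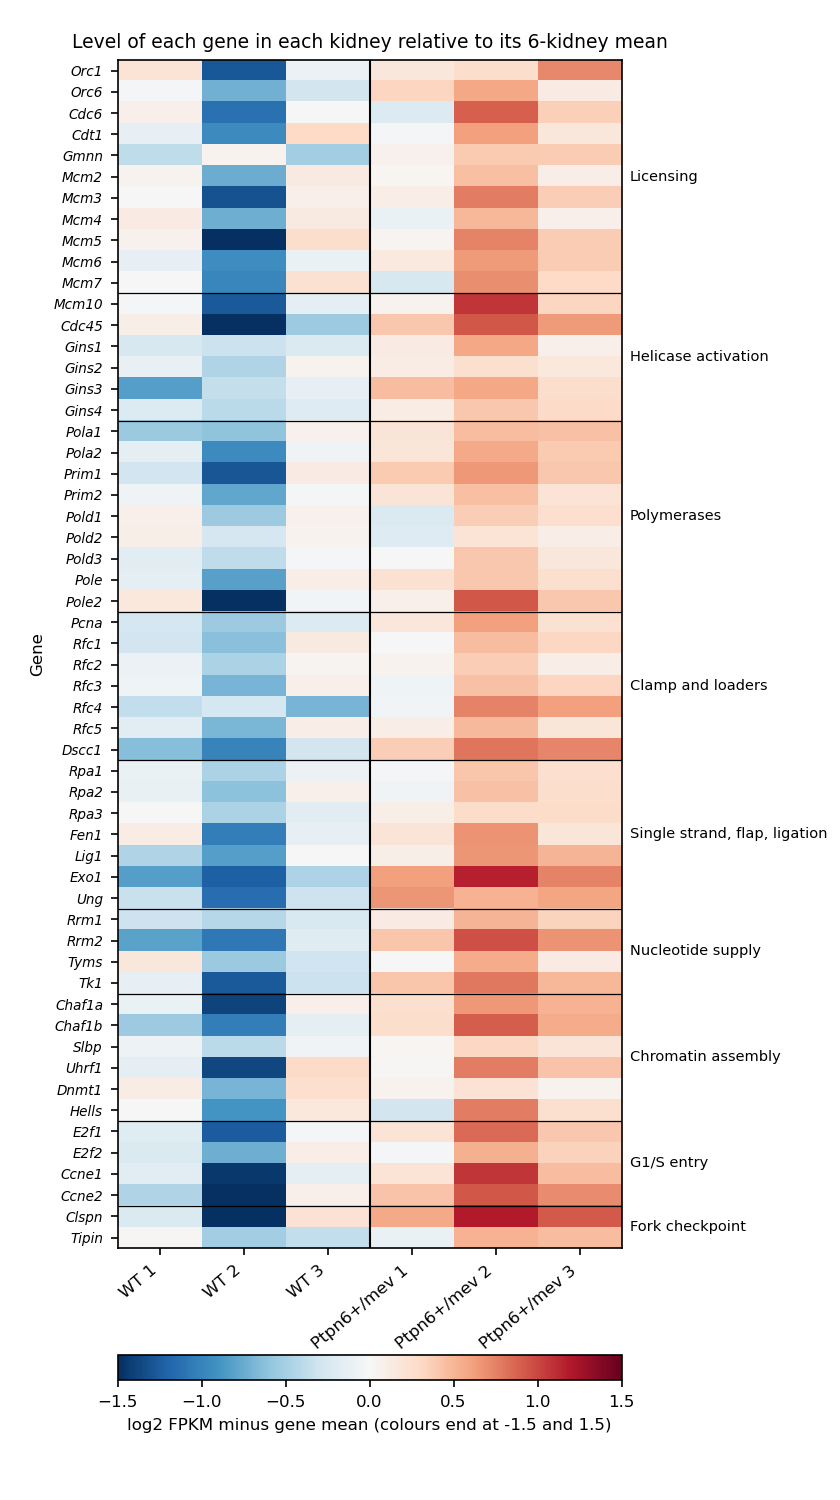
Rows are the 56 genes grouped by role, columns are the 6 libraries, and colour gives log2 FPKM minus the gene's mean over the 6 kidneys, from blue (lower) to red (higher). Wild-type replicate 2 is the bluest column and Ptpn6+/mev replicate 2 the reddest, and Gmnn, Gins3 and Rfc4 are the genes whose lowest value is in another wild-type kidney.

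Of the 11 licensing genes, 3 were higher at an unadjusted p under 0.05, against 5.53% of tested genes, and 4 had groups that did not overlap in FPKM, against 14.0%; the median log2 fold change was 0.60, and 0.31 without wild-type replicate 2. The promoters of the MCM ring are shown first, because E2F factors bind the 8-base sequences TTTCCCGC, TTTGGCGC, TTTCGCGC and TTTGCCGC, searched here on both strands. The windows run from 250 bases before to 50 bases after each start site (RefSeq, GRCm38.p6), and 44 of the 56 genes had at least 1. A match was found in 19 of their 53 promoters, 35.8%, against 2.26% of all 32851 promoters. Of the 26 matches, 16 began within 50 bases of the start site. Promoters with 2 or more matches belonged to 6 genes, Mcm3, Mcm5, Mcm6, Mcm7, Rfc3 and Dnmt1, while 0.0974% of all promoters had as many. In the 4 MCM promoters, with the matches in capitals on either strand, overlapping matches form 1 longer run in Mcm5 and in Mcm6:
Mcm3, chr1:20820263-20820562, minus strand: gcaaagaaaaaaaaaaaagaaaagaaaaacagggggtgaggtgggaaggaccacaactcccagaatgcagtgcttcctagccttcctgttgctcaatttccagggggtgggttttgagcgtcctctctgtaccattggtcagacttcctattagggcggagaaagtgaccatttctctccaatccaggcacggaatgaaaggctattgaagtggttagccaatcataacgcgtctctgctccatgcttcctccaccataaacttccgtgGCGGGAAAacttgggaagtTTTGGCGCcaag
Mcm5, chr8:75109259-75109558, plus strand: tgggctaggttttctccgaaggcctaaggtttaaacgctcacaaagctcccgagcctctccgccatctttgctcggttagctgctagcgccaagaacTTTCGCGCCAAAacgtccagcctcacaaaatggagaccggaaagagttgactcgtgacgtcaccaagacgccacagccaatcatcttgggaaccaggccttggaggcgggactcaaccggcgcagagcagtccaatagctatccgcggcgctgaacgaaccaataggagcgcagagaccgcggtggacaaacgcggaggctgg
Mcm6, chr1:128359656-128359955, minus strand: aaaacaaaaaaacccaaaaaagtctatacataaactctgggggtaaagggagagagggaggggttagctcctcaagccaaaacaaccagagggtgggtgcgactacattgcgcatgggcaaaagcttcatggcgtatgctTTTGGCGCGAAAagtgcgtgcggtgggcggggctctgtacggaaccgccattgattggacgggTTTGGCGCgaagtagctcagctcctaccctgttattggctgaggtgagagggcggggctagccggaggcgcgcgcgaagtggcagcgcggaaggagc
Mcm7, chr5:138171834-138172133, minus strand: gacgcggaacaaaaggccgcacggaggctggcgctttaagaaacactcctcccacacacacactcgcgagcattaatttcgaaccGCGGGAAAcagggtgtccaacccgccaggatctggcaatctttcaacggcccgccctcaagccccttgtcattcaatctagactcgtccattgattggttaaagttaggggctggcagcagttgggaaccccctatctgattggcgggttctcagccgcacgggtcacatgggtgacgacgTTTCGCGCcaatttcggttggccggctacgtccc
These letters did not sort the genes by their difference between the groups. The median log2 fold change was 0.61 for the 19 genes with a match and 0.62 for the 25 with a promoter and no match. Over the 434 other tested genes with a match it was 0.028, and over tested genes without one -0.0059. A match is a description of the sequence and no evidence of binding in these kidneys.

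Mcm6 was the most abundant ring subunit in all 6 kidneys. It lies on chromosome 1 from 128331590 to 128359664 (GENCODE M21, GRCm38), and stood at 42.1, 59.1 and 49.4 FPKM in Ptpn6+/mev kidneys and 35.0, 20.02 and 35.4 FPKM in wild-type kidneys. The groups did not overlap (log2 fold change 0.67, standard error 0.20, adjusted p = 0.234). Mcm3 was likewise apart, narrowly, at 19.6, 31.1 and 23.8 FPKM against 18.3, 7.43 and 19.3 FPKM (0.67, standard error 0.31, adjusted p = 0.44). Without wild-type replicate 2 its log2 fold change was 0.36. Mcm5 had the largest ratio of highest to lowest kidney in the ring, from 9.32 FPKM in wild-type replicate 2 to 44.0 FPKM in Ptpn6+/mev replicate 2, and its groups overlapped. Mcm2, Mcm4 and Mcm7 overlapped too. Mcm4, the least abundant subunit in 5 of the 6 kidneys, had 12.0, 18.2 and 13.6 FPKM against 14.01, 7.71 and 14.04 FPKM, so that 2 wild-type kidneys exceeded 2 of the Ptpn6+/mev kidneys (log2 fold change 0.23, standard error 0.23, adjusted p = 0.76). Its log2 fold change was 0.014 without wild-type replicate 2 and 0.037 without Ptpn6+/mev replicate 2. Since FPKM is scaled to length, subunits of a ring can be compared in level within a kidney. The FPKM of Mcm6 divided by that of Mcm4 was 3.51, 3.26 and 3.64 in Ptpn6+/mev kidneys and 2.50, 2.60 and 2.52 in wild-type kidneys. These ratios did not overlap and, unlike the levels themselves, did not set the kidneys numbered 2 apart.

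Among the loaders and their regulators, Orc6, a subunit of the origin recognition complex, had 21.1, 25.2 and 18.4 FPKM in Ptpn6+/mev kidneys and 16.6, 10.3 and 14.02 FPKM in wild-type kidneys (log2 fold change 0.61, standard error 0.19, adjusted p = 0.239). Orc1, the subunit that is made and destroyed with each cycle, was low in every kidney, between 0.33 and 1.32 FPKM, with as few as 11 counts in a library, and its groups overlapped. Cdc6 ranged from 2.55 to 5.46 FPKM in Ptpn6+/mev kidneys and from 1.35 to 3.08 FPKM in wild-type kidneys, again with overlap. Cdt1, which brings the ring to the origin, was highest among wild-type kidneys in replicate 3, at 18.2 FPKM, above the 14.6 and 16.6 FPKM of 2 Ptpn6+/mev kidneys. Gmnn encodes geminin, the inhibitor of Cdt1. Its FPKM of 17.9, 22.5 and 22.4 in Ptpn6+/mev kidneys stood just above the 13.2, 17.8 and 11.9 of wild-type kidneys (0.47, standard error 0.20, adjusted p = 0.402), and it was the licensing gene in which wild-type replicate 2 was not low but the highest of its group. On the scale of TMM-scaled log2 CPM (counts scaled to library size) its groups overlapped.

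Helicase activation was the role in which all of the genes, 6 of 6, had groups apart in FPKM, against 14.0% of tested genes, and 3 had an unadjusted p under 0.05, against 5.53% of tested genes in that direction. Cdc45, the helicase cofactor, lies on chromosome 16 from 18780447 to 18811987. Its FPKM of 6.18, 8.88 and 7.30 in Ptpn6+/mev kidneys compared with 4.97, 1.63 and 3.21 in wild-type kidneys, a log2 fold change of 1.09 (standard error 0.35, adjusted p = 0.253). Mcm10, which helps to start the assembled helicase, had 2.93, 5.94 and 3.54 FPKM against 2.78, 1.18 and 2.55 FPKM (0.89, standard error 0.35, adjusted p = 0.345). The groups of Mcm10 nearly touched, at the kidneys numbered 1 of either group. The 4 GINS genes differed less, with log2 fold changes from 0.26 to 0.49. Gins4 was the most even of them, at 22.7, 28.0 and 25.7 FPKM against 18.3, 16.0 and 18.5 FPKM (0.47, standard error 0.12, adjusted p = 0.167). Gins1 had 7.41, 10.2 and 7.16 FPKM against 5.78, 5.43 and 5.86 FPKM, with a log2 fold change of 0.47 (standard error 0.20). Gins2, at 10.5, 11.5 and 10.9 FPKM against 8.99, 7.11 and 10.1 FPKM, had the smallest difference of the role, 0.26 (standard error 0.12), and fractional counts. The 6 genes thus ranked by difference as Cdc45, Mcm10, Gins3, Gins4, Gins1 and Gins2, with standard errors that span several ranks. Without Ptpn6+/mev replicate 2 the log2 fold change of Gins3 was 0.13, below the 0.22 of Gins2. In every kidney Gins4 was the most and Gins3 the least abundant GINS gene, 10.2 to 20.1 times apart in FPKM. Gins3 had 1.94 to 2.41 FPKM in Ptpn6+/mev kidneys and 0.91 to 1.48 FPKM in wild-type kidneys, but its counts gave a log2 fold change of only 0.49 (standard error 0.34) and overlapped as log2 CPM.

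**Figure D3:**
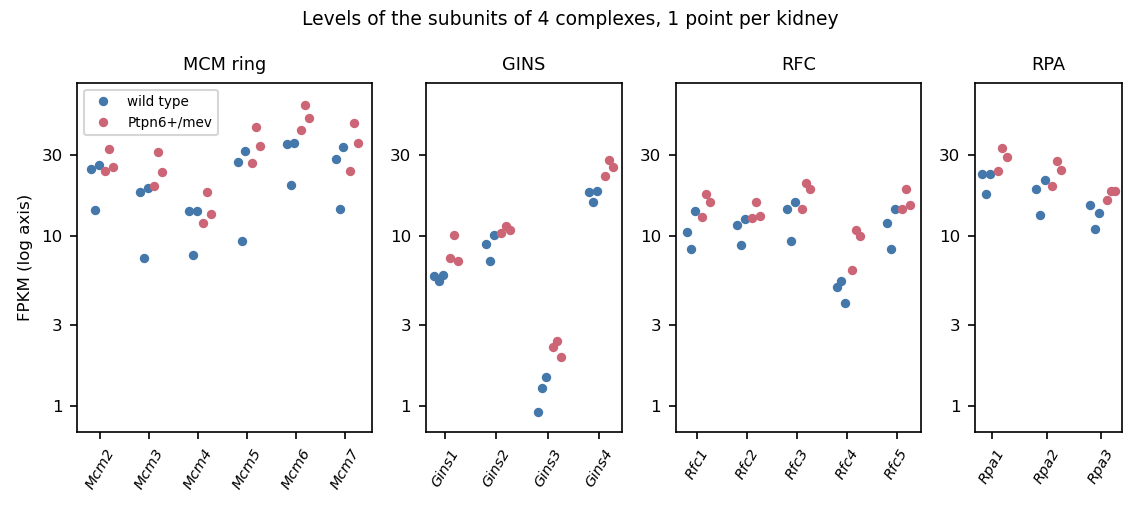
FPKM of the subunits of the MCM ring, GINS, RFC and RPA on a log axis, with 1 point per kidney, 3 wild-type in blue and 3 Ptpn6+/mev in red. Mcm6, Gins4, Rfc3 and Rpa1 are the highest of their complexes in all 6 kidneys, and Gins3, Rfc4 and Rpa3 the lowest.

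Of the 9 polymerase genes, 5 were higher at an unadjusted p under 0.05 and 6 had groups apart, against 5.53% and 14.0% of tested genes. The 4 genes of polymerase alpha and primase, which lay down primers, all had groups apart and an unadjusted p under 0.05. Prim1, the catalytic primase subunit, had 11.9, 14.2 and 12.05 FPKM in Ptpn6+/mev kidneys against 7.47, 3.73 and 9.88 FPKM in wild-type kidneys (log2 fold change 0.80, standard error 0.29, adjusted p = 0.316). Pola2 had 9.39, 12.3 and 10.9 FPKM against 7.57, 4.27 and 8.03 FPKM, and Pola1, the catalytic subunit, 1.36, 1.64 and 1.61 FPKM against 0.81, 0.78 and 1.24 FPKM. Their log2 fold changes were 0.65 and 0.63, with adjusted p = 0.278 and 0.313, and both sets of 3 kidneys were clear of each other. Prim2, the regulatory primase subunit, had 8.30, 9.89 and 8.35 FPKM against 7.02, 4.23 and 7.15 FPKM (0.47, standard error 0.20, adjusted p = 0.40). Of the polymerase delta genes, which make the lagging strand, only Pold3 was apart, at 17.5, 23.1 and 19.6 FPKM against 15.5, 13.4 and 17.2 FPKM (0.32, standard error 0.13, adjusted p = 0.353). Pold1, the catalytic subunit, had a log2 fold change of 0.20 (standard error 0.20). Pold2 had the smallest of the 56, 0.011 (standard error 0.13, adjusted p = 0.986), at 17.4, 23.0 and 21.3 FPKM against 21.1, 16.7 and 20.7 FPKM. Pole, the catalytic subunit of the leading-strand polymerase, was at 2.98, 3.37 and 3.00 FPKM against 2.30, 1.45 and 2.73 FPKM, and its groups overlapped as log2 CPM. Its partner Pole2 had a larger log2 fold change, 0.76, with a standard error of 0.39, and its groups overlapped.

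Pcna, the sliding clamp and the most abundant of the 56 genes, lies on chromosome 2 from 132249162 to 132253314. It had 85.3, 116 and 88.8 FPKM in Ptpn6+/mev kidneys and 63.3, 51.7 and 65.7 FPKM in wild-type kidneys. Group means of 96.7 ± 16.8 (SD, n = 3) and 60.2 ± 7.46 (SD, n = 3) gave a log2 fold change of 0.62 (standard error 0.14, adjusted p = 0.122, and 0.00909 in the exact test). Pcna had fractional counts, which can arise where fragments are shared with similar sequences, so its level carries that uncertainty. The loader genes Rfc1, Rfc2, Rfc3 and Rfc5 had log2 fold changes between 0.27 and 0.42, and only Rfc2 was apart in FPKM, at 12.7, 15.8 and 13.2 against 11.6, 8.82 and 12.6, and not as log2 CPM, where Rfc1 and Rfc5 were apart instead. Rfc4 differed more. At 6.32, 10.9 and 9.96 FPKM against 5.03, 5.40 and 4.01 FPKM the log2 difference was 0.90 (standard error 0.26, adjusted p = 0.21), and without wild-type replicate 2, which was the highest wild-type kidney for this gene, it was 1.06. Dscc1, a subunit of the alternative loader that links replication to sister chromatid cohesion, lies on chromosome 15 from 55076099 to 55090491. It had 2.17, 2.93 and 2.78 FPKM against 1.08, 0.84 and 1.38 FPKM (1.15, standard error 0.29, adjusted p = 0.172), from as few as 13 counts in a library. Rfc4 and Dscc1 each share exon sequence with a gene on the other strand, and the library kit does not mark strand.

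Of the genes for single-strand binding, flap removal, ligation and repair, Exo1 stood out. Exo1, an exonuclease of mismatch repair and DNA end resection, lies on chromosome 1 from 175880581 to 175913489 and had the largest log2 fold change of the 56 genes. It stood at 3.15, 4.61 and 3.44 FPKM in Ptpn6+/mev kidneys and 1.16, 0.88 and 1.50 FPKM in wild-type kidneys, so the lowest Ptpn6+/mev kidney exceeded the highest wild-type kidney by more than the spread within the wild-type group. The difference on the log2 scale was 1.36 (standard error 0.32, adjusted p = 0.145, and 0.00691 in the exact test), and 1.10 without wild-type replicate 2. Lig1, the ligase that joins Okazaki fragments, had 13.9, 20.6 and 18.6 FPKM against 9.47, 7.35 and 13.1 FPKM (0.78, standard error 0.19, adjusted p = 0.162). Fen1, the flap endonuclease that works just before it, was far lower, at 1.86, 2.60 and 1.84 FPKM against 1.75, 0.79 and 1.49 FPKM, with a log2 fold change of 0.59 (standard error 0.32). Exons of Fen1 overlap those of Tmem258 on the other strand. Ung, the uracil-DNA glycosylase, had 10.1, 9.15 and 9.64 FPKM against 5.07, 2.90 and 5.14 FPKM, and is the gene in which Ptpn6+/mev replicate 1 was the highest kidney. Its mean FPKM differed by 1.14 on the log2 scale, but its counts by 0.71 (standard error 0.24, adjusted p = 0.278). The 3 subunits of RPA, which coats single-stranded DNA, were nearly equal in level, within 1.50 to 1.79 times of each other in every kidney, and had log2 fold changes of 0.36, 0.36 and 0.34. Rpa1, the largest subunit, was apart at 24.4, 32.9 and 29.3 FPKM against 23.1, 17.8 and 23.2 FPKM, and Rpa3 at 16.2, 18.4 and 18.4 FPKM against 15.3, 10.98 and 13.6 FPKM, while Rpa2 overlapped.

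Nucleotide supply held the gene with the lowest p of the 56. Rrm2, the regulated small subunit of ribonucleotide reductase, lies on chromosome 12 from 24708241 to 24714146. It had 21.2, 31.1 and 25.3 FPKM in Ptpn6+/mev kidneys and 9.10, 7.58 and 13.97 FPKM in wild-type kidneys. Group means were 25.85 ± 4.97 (SD, n = 3) and 10.2 ± 3.34 (SD, n = 3), a log2 fold change of 1.23 (standard error 0.22, adjusted p = 0.0852). With 1 library left out in turn it stayed between 1.07 and 1.50, and the adjusted p was 0.0301 without wild-type replicate 2 and 0.029 without wild-type replicate 3. Its promoter, shown as the counterpart to the MCM promoters, held none of the E2F letters:
Rrm2, chr12:24708004-24708303, plus strand: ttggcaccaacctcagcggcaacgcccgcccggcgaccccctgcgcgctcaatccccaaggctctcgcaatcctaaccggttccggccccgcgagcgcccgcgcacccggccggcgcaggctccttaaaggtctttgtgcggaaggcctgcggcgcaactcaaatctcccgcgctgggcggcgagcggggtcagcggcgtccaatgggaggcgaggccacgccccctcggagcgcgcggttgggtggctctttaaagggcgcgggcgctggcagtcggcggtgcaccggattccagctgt
Rrm1, the large subunit of the same enzyme, differed less, at 11.9, 15.6 and 13.7 FPKM against 8.81, 8.13 and 9.34 FPKM (0.58, standard error 0.12, adjusted p = 0.104). The FPKM of Rrm2 divided by that of Rrm1 was 1.78, 2.00 and 1.84 in Ptpn6+/mev kidneys and 1.03, 0.93 and 1.50 in wild-type kidneys, without overlap. Thymidylate is supplied by synthesis through Tyms and by salvage through Tk1, and these genes differed in the same manner. Tk1, on chromosome 11 from 117815526 to 117826092, had 24.9, 32.2 and 26.3 FPKM against 17.2, 7.82 and 14.95 FPKM (1.00, standard error 0.25, adjusted p = 0.158), while Tyms had 15.0, 22.1 and 16.3 FPKM against 16.8, 10.2 and 12.2 FPKM (0.25, standard error 0.14, adjusted p = 0.567). The ratio of Tk1 to Tyms was 1.66, 1.46 and 1.61 in Ptpn6+/mev kidneys and 1.02, 0.76 and 1.23 in wild-type kidneys. Ratios of 9 pairs of genes were formed, chosen after the values were seen, and 4 did not overlap between groups: Mcm6 to Mcm4, Rrm2 to Rrm1, Tk1 to Tyms and E2f1 to E2f2. They were not tested, because of that choice.

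**Figure D4:**
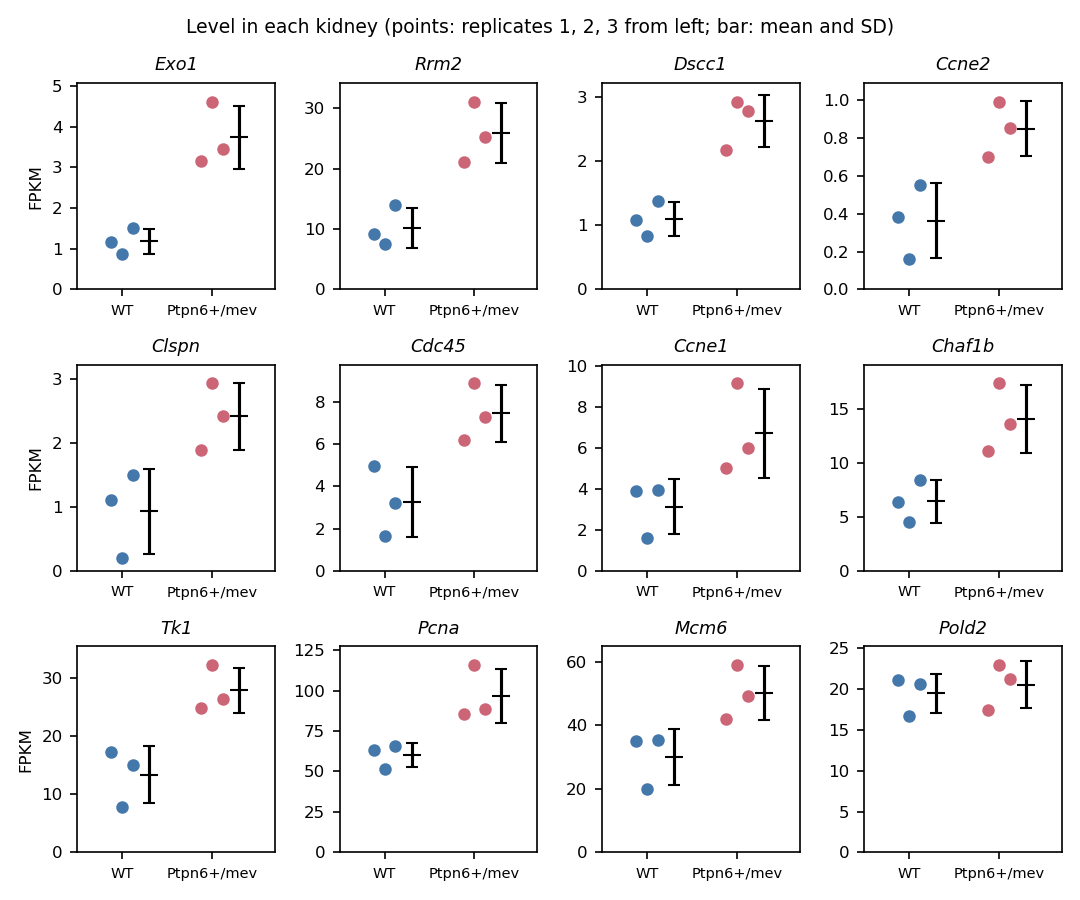
FPKM of 12 genes in each kidney, with points for replicates 1, 2 and 3 from left to right and bars for the mean and SD of each group (wild type in blue, Ptpn6+/mev in red, vertical axes starting at 0). The first 9 panels are the genes with a fold change of 2 or more and, with Pcna and Mcm6, show groups apart, while the groups of Pold2 overlap.

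In chromatin assembly 5 of 6 genes were higher at an unadjusted p under 0.05, against 5.53% of tested genes. Chaf1b, a subunit of the histone chaperone CAF-1 that places new nucleosomes behind the fork, lies on chromosome 16 from 93883901 to 93906115. It had 11.1, 17.4 and 13.7 FPKM in Ptpn6+/mev kidneys and 6.35, 4.53 and 8.48 FPKM in wild-type kidneys (log2 fold change 1.03, standard error 0.24, adjusted p = 0.133). Chaf1a, its partner, had 7.31, 9.73 and 8.91 FPKM against 5.77, 2.36 and 6.54 FPKM (0.77, standard error 0.31, adjusted p = 0.364). Slbp, which binds the stem-loop of histone mRNAs, was apart with a small difference, 23.2, 28.2 and 26.0 FPKM against 21.5, 17.2 and 21.8 FPKM (0.26, standard error 0.11). Poly-A selection leaves out most replication-dependent histone mRNAs themselves. Of the genes that carry DNA methylation through replication, Uhrf1, which recognises hemimethylated DNA, had a log2 fold change of 0.76 (standard error 0.32) with overlapping FPKM, since wild-type replicate 3 was at 20.5 and Ptpn6+/mev replicate 1 at 17.05. Dnmt1, the maintenance methyltransferase, had 17.2, 19.3 and 17.25 FPKM against 17.9, 10.3 and 19.7 FPKM (0.11, standard error 0.20, adjusted p = 0.888), and it is the only gene of the 56 whose highest value was in a wild-type kidney. Without wild-type replicate 2 its log2 fold change was -0.11. Hells, a chromatin remodeler needed for DNA methylation, had the opposite pattern between units. Its FPKM overlapped, at 1.82, 3.76 and 2.61 against 2.21, 1.18 and 2.46, but its counts gave a log2 fold change of 0.85 (standard error 0.23, adjusted p = 0.194) and did not overlap as log2 CPM.

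The genes of G1/S entry were low in level and had the highest median log2 fold change of the roles with more than 2 genes, 0.95, and 0.66 without wild-type replicate 2. Ccne1 and Ccne2 encode cyclins E1 and E2, which activate Cdk2. Ccne1, on chromosome 7 from 38097984 to 38107534, had 5.00, 9.14 and 5.97 FPKM in Ptpn6+/mev kidneys and 3.88, 1.59 and 3.92 FPKM in wild-type kidneys (1.05, standard error 0.35, adjusted p = 0.278). Ccne2 was the least abundant of the 56 genes, at 0.70, 0.99 and 0.85 FPKM against 0.38, 0.16 and 0.55 FPKM (1.14, standard error 0.42, adjusted p = 0.321), and wild-type replicate 2 had 5 counts of it. E2f1, an activating E2F factor, had 7.23, 11.4 and 8.36 FPKM against 5.53, 2.65 and 6.19 FPKM (0.85, standard error 0.29, adjusted p = 0.294). E2f2 overlapped between the groups, with a log2 fold change of 0.48 (standard error 0.24). Of the fork checkpoint genes, Clspn, the adaptor claspin that passes the stalled-fork signal to Chk1, ranged most widely: 1.89, 2.93 and 2.42 FPKM against 1.10, 0.20 and 1.49 FPKM. The difference was 1.12 on the log2 scale (standard error 0.52, adjusted p = 0.438), and 0.66 without wild-type replicate 2, in which it had 11 counts. Tipin, of the fork protection complex, had 17.5, 27.0 and 25.9 FPKM against 19.0, 13.05 and 14.5 FPKM, with overlap. Across roles, the 14 genes under a mean of 5 FPKM had a median log2 fold change of 0.74 and the 42 others 0.48.

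**Figure D5:**
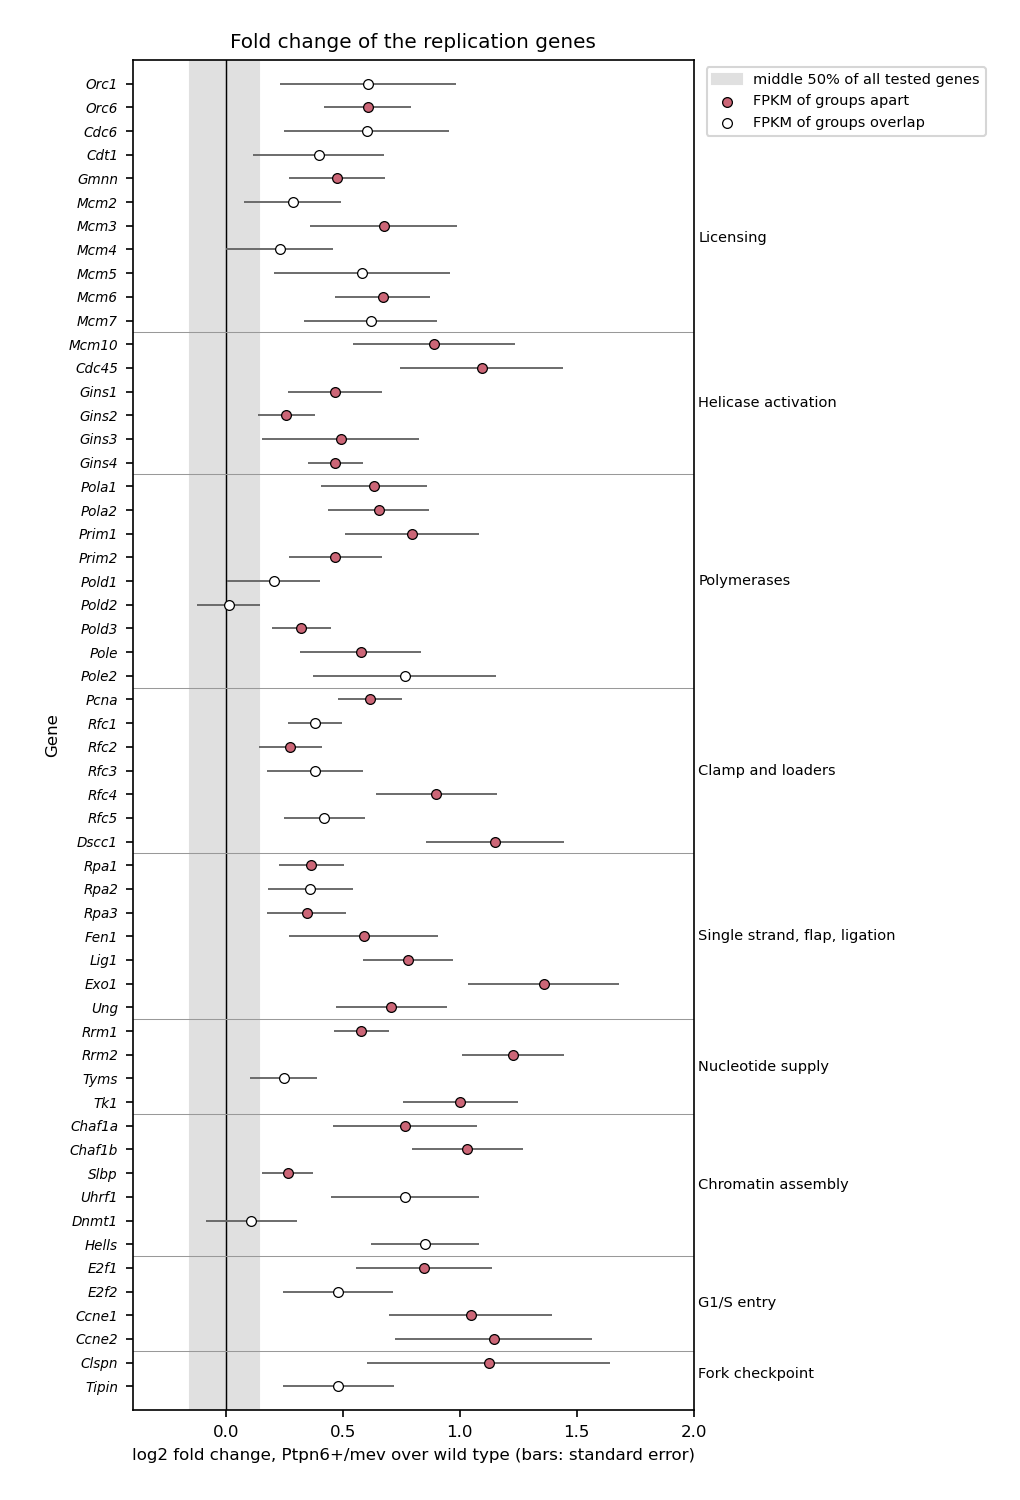
Log2 fold change of the 56 genes (points, with bars of 1 standard error) from edgeR's quasi-likelihood fit, by role, with the middle 50% of all tested genes shaded; filled points mark genes whose FPKM did not overlap between groups. Values run from 0.011 for Pold2 to 1.36 for Exo1.

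A list of 55 further genes of replication and its control shows how far the difference extended. All 55 were tested, 44 had a log2 fold change above 0, against 49.5% of tested genes, and the median was 0.22. Only Ccna2, the gene for cyclin A2 of S and G2 phase, passed an FDR of 0.05, with 3.80, 6.81 and 4.94 FPKM in Ptpn6+/mev kidneys and 1.03, 1.19 and 1.36 FPKM in wild-type kidneys (log2 fold change 2.05, standard error 0.26, adjusted p = 0.0398). This call was lost without any of the Ptpn6+/mev kidneys (adjusted p = 0.0825, 0.0888 and 0.214 without replicates 1, 2 and 3), without wild-type replicate 1 (0.164) and with the replicate number as a block (0.0892), while the log2 fold change in these fits was 1.803 to 2.23. At an unadjusted p under 0.05 there were 18 higher genes and 1 lower, against 5.53% and 6.71% of tested genes. The lower one was Pold4, the small subunit of polymerase delta, at -0.49 on the log2 scale (standard error 0.17, adjusted p = 0.292). After Ccna2 the smallest p belonged to Nasp, a histone chaperone, then E2f8, Pclaf, which binds PCNA, and Dut, which clears dUTP; their log2 fold changes were 0.58, 1.77, 2.00 and 0.65. The subunits Orc2 to Orc5, which persist outside S phase, had log2 fold changes of 0.012, -0.23, -0.28 and -0.32. Pold4 and these subunits were singled out after their values were seen.

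Genes of the following phases, G2 and M, had larger fold changes. In a list of 20 such genes all 20 had groups apart, with a median log2 fold change of 1.38, and 19 had an unadjusted p under 0.05, against 14.0% and 5.53% of tested genes. None passed an FDR of 0.05 in the quasi-likelihood test, and 14 did in the exact test, against 1.21% of tested genes. Top2a, the topoisomerase that untangles sister chromatids, had the smallest p, at 3.01, 4.27 and 4.06 FPKM against 0.92, 0.89 and 1.47 FPKM (1.72, standard error 0.23, adjusted p = 0.0539). Their summed levels were 56.9, 84.6 and 67.0 FPKM in Ptpn6+/mev kidneys and 22.4, 24.5 and 33.0 FPKM in wild-type kidneys, so in this sum wild-type replicate 2 lay between the other 2 wild-type kidneys. Gene by gene, without ties, Ptpn6+/mev replicate 2 was the highest kidney in 18 of the 20, against 17.3% of tested genes. Wild-type replicate 2 was the lowest in 10, near its share of 42.7% of tested genes, and wild-type replicate 1 in 8. The sum over the 56 replication genes was 761, 1063 and 883 FPKM against 658, 436 and 696 FPKM, with wild-type replicate 2 the lowest by far. Without that kidney the median of the G2 and M genes was 1.29 and that of the replication genes 0.43. The 2 lists were not tested against each other.

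Markers of cell types were read beside these genes. Of 10 proximal tubule markers 9 had a log2 fold change below 0, where 49.5% of tested genes had one above 0. Every Ptpn6+/mev kidney was lower in 3 of the markers, against 6.38% of tested genes. At an unadjusted p under 0.05 in the quasi-likelihood test 5 were lower, against 6.71%. The 10 markers summed to 955 to 1050 FPKM against 1216 to 1373 FPKM. Slc22a8, an organic anion transporter, passed an FDR of 0.05 (log2 fold change -0.91, standard error 0.12, adjusted p = 0.0443). This call was lost when any kidney but wild-type replicate 2 was left out (adjusted p from 0.0543 to 0.343). It was also lost with the replicate number as a block (0.168) and in limma (0.0555 and 0.0568 with 1 and 0.1 added). Of 9 markers of tubular injury, 4 were higher in every Ptpn6+/mev kidney with an unadjusted p under 0.05: Vcam1, Krt18, Krt8 and Havcr1. Among tested genes 14.0% were higher in every Ptpn6+/mev kidney, and 5.53% were higher at that p. Spp1 had an unadjusted p under 0.05 with a log2 fold change of -0.38, where 6.71% of tested genes were lower at that p. The sum, mostly Spp1, overlapped at 26938 to 32959 FPKM against 30193 to 39005 FPKM. Macrophage markers summed to 199 to 320 FPKM against 168 to 283 FPKM and neutrophil markers to 24.8 to 58.1 FPKM against 26.3 to 45.4 FPKM, in neither case with a gene at an unadjusted p under 0.05. Sums for the loop and distal nephron were 2032 to 2933 FPKM against 2483 to 2883 FPKM, and for podocytes 119 to 152 FPKM against 84.9 to 130.2 FPKM. Lymphocyte markers were near 0, with sums of 0.47 to 0.91 FPKM against 0.66 to 2.99 FPKM, and none of the 7 passed the filter on counts. Which cells held the replication transcripts cannot be read from these libraries, and the part of tubular loss or injury in their level was not tested.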

How the data were processed

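RNA-seq of whole kidney was measured in 6 libraries, 3 Ptpn6+/mev and 3 wild-type, all after IRI; group and replicate number come from the sample titles. No label uses the letters HE that head the mutant columns of the table, so these columns were taken as heterozygous, the only such group, and matched by number. The authors trimmed the reads, ran TopHat against GRCm38.p5 and took FPKM from Cufflinks; the deposited table gives each gene's FPKM and its estimated count in every library, and the tool behind the counts is not given in the sources used here, though the submitters' processing notes also list Bowtie2 and RSEM. Estimated counts are fractional in 1744 genes, 6 of the 56 among them, and were rounded. Total counts differed little, and counting error matters most for Ccne2, the 1 gene under 10 counts in a library, and for Orc1, Clspn and Dscc1, with 11 to 13 counts in their lowest. In 18 of the 56 genes an exon overlaps another gene's exon in GENCODE M21, so their levels are less certain.

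Counts were tested with edgeR 4.0.16 (R 4.3.3): filterByExpr, TMM, quasi-likelihood F-test, two-sided, Benjamini-Hochberg over 13036 genes, called at an FDR under 0.05. Adjusted p-values are from this test unless another is named. The exact test of edgeR and DESeq2 1.42.0 served as alternatives. Tried on simulated data, all 3 made more false calls than the nominal rate, the exact test and DESeq2 more than the quasi-likelihood test. Levels are FPKM without a pseudocount, and limma 3.58.1 served as an alternative. 14 alternatives were planned and 2 were added after the data were seen. Promoters are from RefSeq's GRCm38.p6; Gins1, Gins2, Gins4, Mcm4, Gmnn, Tipin, Dscc1, Rfc2, Ccne2, Prim2, Pole and Exo1 had none in the table used.

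The genes, lists and tests were chosen with earlier results of these data known, so no set was tested and no p is adjusted over a list alone. All 56 genes could be named, with full values for those whose groups did not overlap and for the most and least abundant of a role; of the 2 other lists, genes at an FDR under 0.05 or else the 5 with the smallest p could be named. Libraries of a group differed by 6.27 to 43.3 in chi-square per degree of freedom, more than counting noise, so none was another library sequenced again. The labels number the mice without naming litters, and p-values measure the spread between these mice.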

Additional observations from a re-analysis of the deposited data

How the results depend on the processing

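The sign of the difference depended little on the processing and the number of calls a great deal. All 56 genes kept a log2 fold change above 0 with DESeq2's size factors, without a filter, in the exact test and DESeq2, in limma on FPKM after a log2 transform with 1 or 0.1 added, and with the replicate block; Ccne2 was not tested where 10 counts in every library were required. The exact test called 8 of the 56 and DESeq2 7, where the quasi-likelihood test called none. Over all genes the quasi-likelihood test called 18, against 52 without a filter, 390 in the exact test and 387 in DESeq2; of the 55 further replication genes it called 1, and the exact test and DESeq2 6 each. By limma the calls were 0 of the 56 and 1 of the 55, and 22 or 19 of all genes with 1 or 0.1 added. With 1 library left out in turn, calls ranged from 0 to 2 of the 56, from 1 to 237 of all genes and from 0 to 4 of the 55, genes of the 56 at an unadjusted p under 0.05 from 13 to 39 (all tested genes, higher: 3.45% to 8.36%), and the median log2 fold change of the 56 from 0.43 to 0.70. Pold2 reversed without Ptpn6+/mev replicate 2 (-0.080), Ptpn6+/mev replicate 3 (-0.012) and wild-type replicate 2 (-0.063), and Dnmt1 without wild-type replicate 2 (-0.11). Without both kidneys numbered 2, a choice made after seeing the data that leaves 2 against 2, calls were 3 of the 56, 484 of all genes and 3 of the 55, 19 of the 56 were higher at an unadjusted p under 0.05, against 9.74% of tested genes, and Cdt1 (-0.064), Mcm2 (-0.068), Mcm4 (-0.17), Pold1 (-0.068), Pold2 (-0.15) and Dnmt1 (-0.17) reversed. Over all of these fits the highest values of these genes were 0.68 for Cdt1, 0.42 for Mcm2, 0.35 for Mcm4, 0.36 for Pold1, 0.12 for Pold2 and 0.27 for Dnmt1. The causes were not tested. Groups apart numbered 36 of the 56 in FPKM, against 14.0% of tested genes, and 36 as log2 CPM, against 9.64%, also compared after seeing the data.

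Same-numbered mice did not deviate together (correlations -0.14, -0.18 and -0.13), so the numbers do not pair them. With the replicate number as a block, calls were 0 of the 56, 1 of all genes and 0 of the 55.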

Other observations

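For 4 of the 56 genes the deposited FPKM and the counts gave different sizes for the difference between the groups, by more than 0.3 on the log2 scale. Ung had 1.14 from mean FPKM and 0.71 from counts, Gins3 0.85 and 0.49, Exo1 1.66 and 1.36, and Hells, in the other direction, 0.49 and 0.85. The median log2 fold change of the 56 genes by limma, fitted to log2 FPKM, was 0.66 after adding 0.1 to each value and 0.51 after adding 1, against 0.59 from counts.

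CCAAT or its reverse ATTGG, the letters bound by NF-Y, stood in 31 of the 53 promoters of these genes, 58.5%, against 37.4% of all promoters of the same length.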
